A study of Mus musculus with 18 samples.

Results

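Transcripts of 10 genes that mark thymocytes and other T-lineage cells were followed through 18 RNA sequencing libraries of mouse eosinophils cultured with apoptotic cells (ACs). The 10 genes were Cd3d, Cd3e, Cd3g, Cd4, Cd8a, Cd8b1, Lck, Rag1, Tcf7 and Lef1. All were taken by gene identifier from a table of 54446 genes, with earlier results of these data known. They were examined because the ACs in every culture were thymocytes, so that RNA carried over from them was a candidate source. No library without ACs is analysed here, so the source of these transcripts was not tested. A read in bulk RNA also cannot tell fewer cells of a type from less RNA per cell.

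Eosinophils came from the peritoneal cavity of Il5Tg mice, labelled as strain C57BL/6, and were depleted of Thy1.2+ and B220+ cells before culture and selected again with anti-Siglec-F beads after it, as the methods describe. For the ACs, thymocytes from wild-type mice were driven into apoptosis by dexamethasone. In the Type 1 experiment the groups were ACs alone, IFN-γ + ACs, E. coli + ACs and both stimuli together (IFN-γ + E. coli + ACs), and in the IL-4 experiment they were ACs alone and IL-4 + ACs, with 3 libraries in each of the 6 groups. As background, the Il5 transgene of this line is driven by regulatory elements of the Cd3d gene, so these mice express IL-5 in their own T cells. Whether the transgene holds any exon of Cd3d is not given in the sources used here. The labels call the 3 libraries of a group replicates without naming the animals, so p-values measure the spread between these libraries.

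Immature thymocytes assemble their antigen receptor from the α and β chains of the T cell receptor, and the CD3 chains carry it to the surface and pass on its signal. The coreceptors CD4 and CD8 bind MHC molecules and bring the kinase LCK to the complex. Most thymocytes are at the stage at which both coreceptors are made, when the RAG recombinase cuts the receptor genes, and these cells are the ones that die most readily under glucocorticoids. The transcription factors TCF-1 (Tcf7) and LEF-1 (Lef1) set up and maintain the T lineage.

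The 10 transcripts were present but scarce. Their reads, summed, came to between 14.1 and 73.3 RPM, a read count divided by the reads on genes of its library and scaled to the same total for each. Each library had between 779421 and 7782072 reads on genes, and values are given below as normalized counts, reads per gene that the authors scaled by each library's size factor. In the Type 1 experiment 3 reads, the most that a value of 0 allows, corresponded to a normalized count of 2.44 to 6.16. In replicate 3 of the IL-4 experiment they corresponded to 16.08 (ACs) and 15.42 (IL-4 + ACs), since these libraries had 779421 and 849705 reads. The 6 libraries with IFN-γ were shallower (2216917 to 4090386 reads) than the other 6 of the Type 1 experiment (4234312 to 5078760 reads). Such limits cover counting error only. CEL-Seq2 counts the 3′ ends of transcripts, so a count does not scale with the length of the gene. No other annotated gene shared any of the last 500 exon bases of a member.

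**Figure D1:**
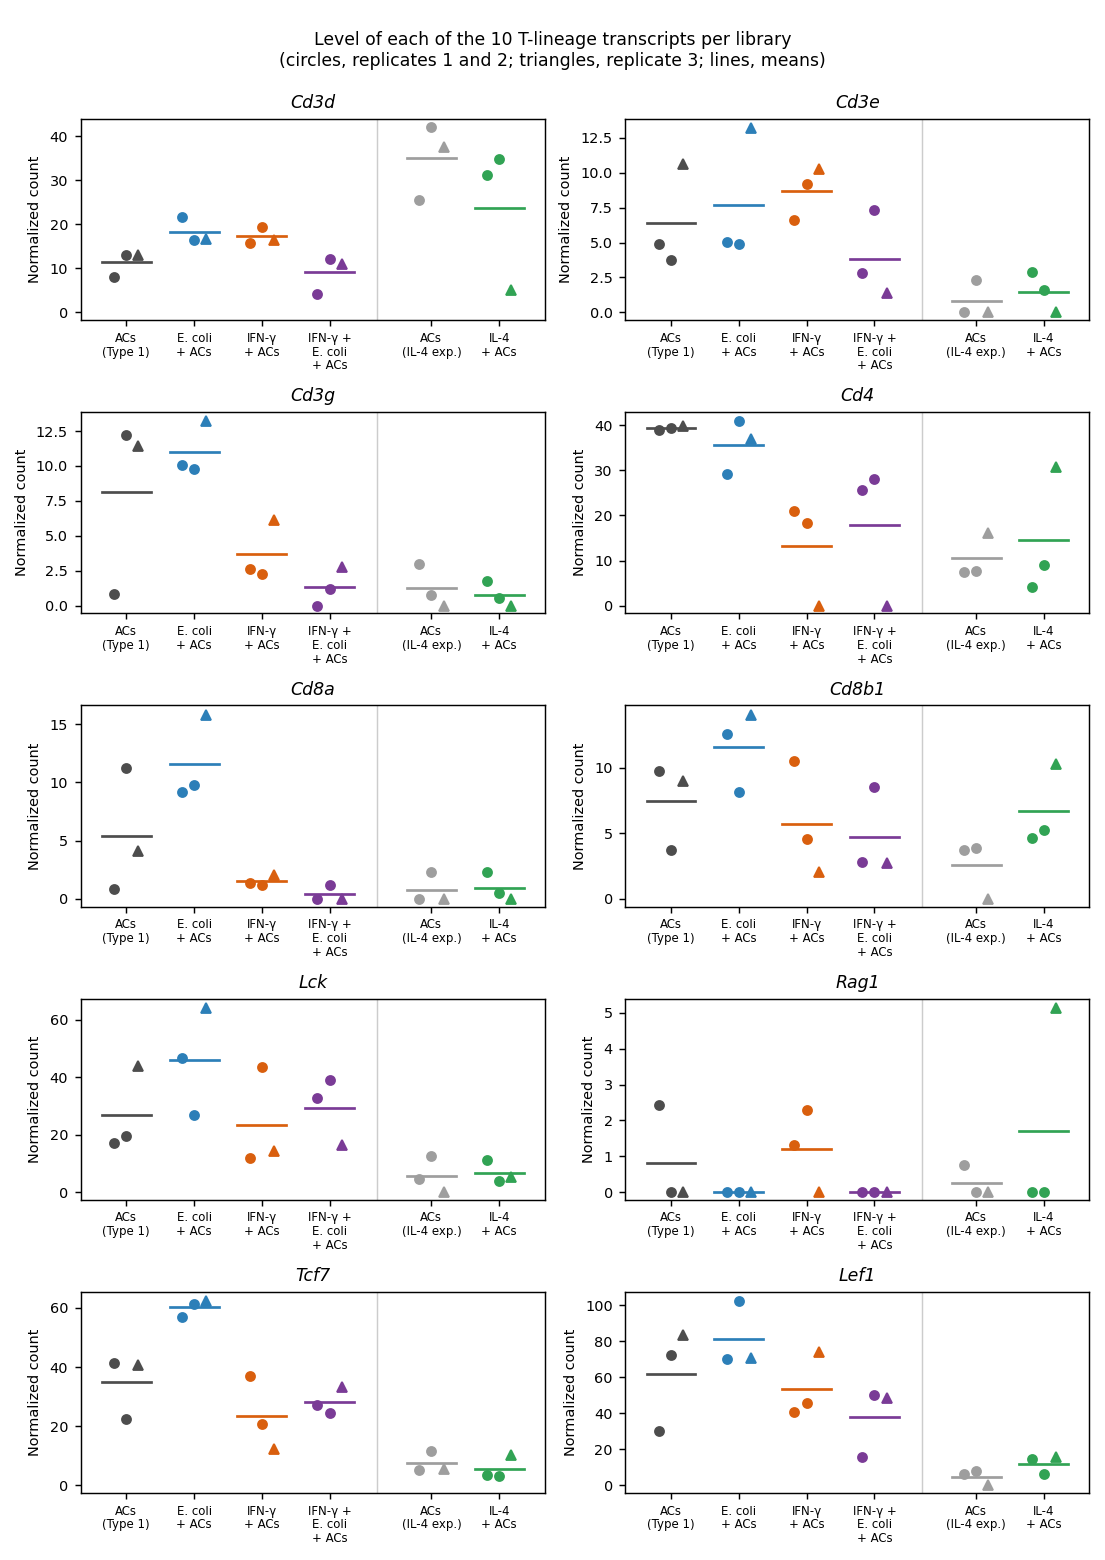
Normalized counts of the 10 transcripts (vertical axes, linear, each with its own range) in the 18 libraries by group, with circles for replicates 1 and 2, triangles for replicate 3 and lines for group means. Cd3d was the member with its highest mean (35.0) in the ACs libraries of the IL-4 experiment, while Tcf7, Lef1 and Lck lay below 16 in all 6 libraries of that experiment.

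The 3 CD3 genes lie together on chromosome 9 of GRCm38, within 40056 bases. Cd3g (44969572 to 44980431, minus strand) and Cd3d (44981786 to 44987339, plus strand) face away from each other with 1355 bases between their starts, and Cd3e lies at 44998740 to 45009627 on the minus strand. Their promoters are shown because Cd3d and its neighbours had changes of opposite sign between the experiments. Only the change of Cd3d passed the thresholds given below, and a link of these sequences to the changes was not tested. The sequences are the 250 bases before each RefSeq start (GRCm38.p6), read 5′ to 3′ on the strand of the gene. Capitals mark TCF/LEF motifs (CTTTGA or CTTTGT, or their complements), E-boxes (CAGGTG or its complement) and a GATA motif (AGATAA).
Cd3g (chr9:44980432-44980681, - strand): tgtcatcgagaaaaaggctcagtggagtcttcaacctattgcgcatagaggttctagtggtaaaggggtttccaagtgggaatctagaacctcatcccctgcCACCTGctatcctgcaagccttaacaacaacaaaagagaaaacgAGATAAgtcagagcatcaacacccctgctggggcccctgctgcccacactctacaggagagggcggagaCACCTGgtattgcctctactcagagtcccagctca
Cd3d (chr9:44981536-44981785, + strand): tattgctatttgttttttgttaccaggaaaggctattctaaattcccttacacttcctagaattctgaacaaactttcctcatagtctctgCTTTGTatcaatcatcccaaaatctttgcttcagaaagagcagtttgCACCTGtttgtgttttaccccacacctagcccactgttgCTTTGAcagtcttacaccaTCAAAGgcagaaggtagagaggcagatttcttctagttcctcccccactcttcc
Cd3e (chr9:45009612-45009861, - strand): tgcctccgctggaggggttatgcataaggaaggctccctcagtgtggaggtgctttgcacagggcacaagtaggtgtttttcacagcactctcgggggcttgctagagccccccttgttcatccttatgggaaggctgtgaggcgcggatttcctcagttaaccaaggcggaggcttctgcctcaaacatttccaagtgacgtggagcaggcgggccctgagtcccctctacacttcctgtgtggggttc

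Cd3d held 3 TCF/LEF motifs and 1 E-box in this stretch, Cd3g held 2 E-boxes and 1 GATA motif, and Cd3e held none of the 5 motifs searched before its start and 1 E-box just after it. In RefSeq windows from 250 bases before to 50 after the start, 13 windows of 8 members were found, with none for Cd4 and Cd8b1. The E-box stood in 8 of the 13 windows, belonging to 7 of the 8 genes, against 20.2% of 32851 mouse promoters. The TCF/LEF motif stood in 3 of the 13 windows, against 31.2% of promoters. The RUNX motif (TGTGGT) stood in 2 windows, the GATA motif in 2 and the ETS motif (CCGGAAG) in 1, against 16.8%, 11.2% and 8.86% of promoters. Both strands were searched, and a match is a match of letters only.

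Cd3d encodes the CD3δ chain and was read in all 18 libraries. Its normalized counts were 8.13, 13.14 and 13.05 with ACs, 21.77, 16.35 and 16.71 with E. coli + ACs, 15.83, 19.49 and 16.42 under IFN-γ + ACs, and 4.28, 12.22 and 11.04 under IFN-γ + E. coli + ACs. In the IL-4 experiment they were 25.57, 42.04 and 37.53 with ACs and 31.29, 34.78 and 5.14 with IL-4 + ACs, the last value being 1 read of the shallow library. The E. coli + ACs libraries and the IFN-γ + ACs libraries all lay above the ACs libraries of the Type 1 experiment, and 5 of the 6 libraries of the IL-4 experiment lay above every Type 1 library.

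Cd3e, which encodes CD3ε, was scarcer than Cd3d and was read in 15 of the 18 libraries. It stood at 4.88, 3.75 and 10.60 with ACs, 5.02, 4.91 and 13.19 with E. coli + ACs, 6.60, 9.17 and 10.26 under IFN-γ + ACs, and 2.85, 7.33 and 1.38 under IFN-γ + E. coli + ACs. Its values in the IL-4 experiment were 0, 2.34 and 0 with ACs and 2.90, 1.58 and 0 with IL-4 + ACs. The Type 1 groups overlapped, and the ACs libraries of the IL-4 experiment lay below all Type 1 ACs libraries.

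Cd3g, which encodes CD3γ, was 0.81, 12.20 and 11.42 with ACs, and 10.05, 9.81 and 13.19 with E. coli + ACs. With IFN-γ it was 2.64, 2.29 and 6.16, and under IFN-γ + E. coli + ACs it was 0, 1.22 and 2.76, which is 3 reads over the 3 libraries. It was 3.01, 0.78 and 0 with ACs and 1.74, 0.53 and 0 with IL-4 + ACs in the IL-4 experiment. All 3 E. coli + ACs libraries lay above all 6 libraries with IFN-γ, and replicate 1 of the ACs group lay with the latter.

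Cd4 (chromosome 6, 124864692 to 124888221, minus strand) encodes the coreceptor for MHC class II. It was nearly even in the ACs libraries of the Type 1 experiment at 39.03, 39.42 and 39.96, and was 29.30, 40.88 and 36.94 with E. coli + ACs. It was 21.10, 18.34 and 0 under IFN-γ + ACs and 25.66, 28.10 and 0 under IFN-γ + E. coli + ACs, so all 6 libraries with IFN-γ lay below all 6 without it. The 2 values of 0 were both in replicate 3. Cd4 in the IL-4 experiment was 7.52, 7.79 and 16.08 with ACs and 4.06, 8.96 and 30.84 with IL-4 + ACs, and replicate 3 there is the shallow library, in which 3 reads gave 16.08.

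Cd8a and Cd8b1 encode the α and β chains of the coreceptor for MHC class I and lie 35933 bases apart on chromosome 6 (71373427 to 71379173 and 71322788 to 71337494, plus strand). Cd8a was 0.81, 11.26 and 4.08 with ACs, 9.21, 9.81 and 15.83 with E. coli + ACs, 1.32, 1.15 and 2.05 under IFN-γ + ACs, and 0, 1.22 and 0 under IFN-γ + E. coli + ACs. Over 3 libraries each, 41 reads were counted with E. coli + ACs and 1 under IFN-γ + E. coli + ACs. Values of Cd8a in the IL-4 experiment were 0, 2.34 and 0 with ACs and 2.32, 0.53 and 0 with IL-4 + ACs. In the Type 1 experiment at least 3 reads of Cd8a were counted in all 3 E. coli + ACs libraries, in 2 of the 3 ACs libraries and in 0 of the 6 with IFN-γ.

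Cd8b1 was read in 17 of the 18 libraries. It was 9.76, 3.75 and 8.97 with ACs, 12.56, 8.18 and 14.07 with E. coli + ACs, 10.55, 4.58 and 2.05 under IFN-γ + ACs and 2.85, 8.55 and 2.76 under IFN-γ + E. coli + ACs. Cd8b1 values in the IL-4 experiment were 3.76, 3.89 and 0 with ACs and 4.63, 5.27 and 10.28 with IL-4 + ACs. The IL-4 + ACs libraries lay above the ACs libraries of that experiment, the highest of them on 2 reads.

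Lck (chromosome 4, 129548344 to 129573641, minus strand) encodes the kinase that starts signalling from the T cell receptor. It was 17.08, 19.71 and 44.04 with ACs, 46.88, 26.98 and 64.21 with E. coli + ACs, 11.87, 43.56 and 14.36 under IFN-γ + ACs, and 32.79, 39.09 and 16.56 under IFN-γ + E. coli + ACs. The groups of the Type 1 experiment overlapped. Lck in the IL-4 experiment was 4.51, 12.46 and 0 with ACs and 11.01, 3.69 and 5.14 with IL-4 + ACs, and only the value of 12.46 there lay above the lowest Type 1 value of 11.87.

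Rag1 (chromosome 2, 101638282 to 101649501, minus strand), which encodes a subunit of the recombinase, was at or near 0. It was read at 2.44 in 1 ACs library of the Type 1 experiment, at 1.32 and 2.29 in 2 IFN-γ + ACs libraries, at 0.75 in 1 ACs library of the IL-4 experiment and at 5.14, which is 1 read, in the shallow IL-4 + ACs library. The other 13 libraries had no read, and all 18 together had 8. It was too scarce to be tested.

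Tcf7 and Lef1 were the most abundant of the 10 by normalized count in the Type 1 experiment. Tcf7 (chromosome 11, 52252371 to 52283014, minus strand) was 41.47, 22.52 and 40.78 with ACs, 56.93, 61.32 and 62.45 with E. coli + ACs, 36.93, 20.63 and 12.31 under IFN-γ + ACs, and 27.08, 24.43 and 33.11 under IFN-γ + E. coli + ACs. The E. coli + ACs libraries lay above all other 15 libraries. In the IL-4 experiment Tcf7 was 5.26, 11.68 and 5.36 with ACs and 3.48, 3.16 and 10.28 with IL-4 + ACs, below every Type 1 library.

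Lef1 (chromosome 3, 131110471 to 131224356, plus strand) was 30.09, 72.26 and 83.19 with ACs, 70.32, 102.19 and 70.37 with E. coli + ACs, 40.89, 45.85 and 73.88 under IFN-γ + ACs, and 15.68, 50.08 and 48.29 under IFN-γ + E. coli + ACs. The groups of the Type 1 experiment overlapped except that the libraries under IFN-γ + E. coli + ACs all lay below those with E. coli + ACs. In the IL-4 experiment Lef1 was 6.02, 7.79 and 0 with ACs and 14.48, 6.32 and 15.42 with IL-4 + ACs.

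By group mean, 6 of the 10 members were highest in E. coli + ACs. The others were Cd3e, highest in IFN-γ + ACs, Cd4, highest in ACs of the Type 1 experiment, Cd3d, highest in ACs of the IL-4 experiment, and Rag1, highest in IL-4 + ACs on 1 read. When the 6 groups were put in order for each member, 6 of 50 neighbouring pairs did not overlap. These were 2 for Tcf7 and 1 each for Cd3d, Cd4, Lck and Lef1. The share of such pairs over all genes was not computed, so this count is a description only.

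The sum of the 10 members in RPM was 52.0 ± 14.0 (SD, n = 3) with ACs, 67.8 ± 5.4 with E. coli + ACs, 32.7 ± 2.78 under IFN-γ + ACs and 28.7 ± 7.89 under IFN-γ + E. coli + ACs. The libraries with IFN-γ ranged from 23.7 to 37.8 and those without it from 39.2 to 73.3, so these did not overlap. The ACs and E. coli + ACs libraries overlapped (39.2 to 67.0 and 62.5 to 73.3). In the IL-4 experiment the sum was 16.8 ± 4.62 with ACs and 17.8 ± 1.7 with IL-4 + ACs, and the highest of these 6 libraries (22.1, 95% exact binomial interval 18.3 to 26.5) lay below the lowest of the Type 1 experiment (23.7, 18.7 to 29.5), although these intervals overlapped. Sums are given as a description, with no test.

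**Figure D2:**
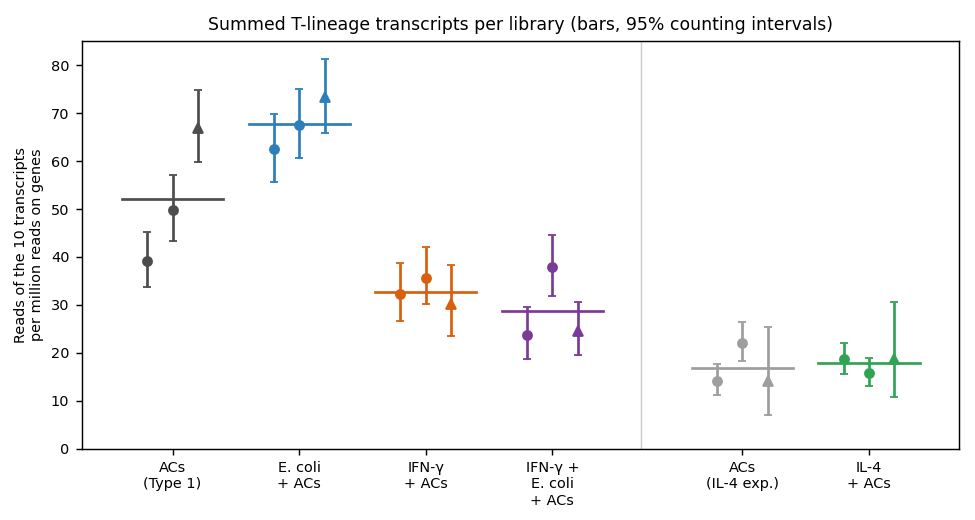
Sum of the 10 transcripts (vertical axis, RPM, linear, from 0) for each library, with 95% exact binomial intervals for counting error, by group; lines are group means of 3 libraries. The 6 libraries with IFN-γ lay between 23.7 and 37.8, below the 6 Type 1 libraries without it, and the IL-4 experiment lay between 14.1 and 22.1.

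The mix of the transcripts differed between the experiments. Lef1 made up 28.7% to 32.8% of the summed reads in the 4 Type 1 groups, and Cd3d 5.59% to 11.3%. In the IL-4 experiment Cd3d made up 46.8% of the summed reads with ACs and 44.8% with IL-4 + ACs, and Lef1 8.87% and 14.8%. Without Cd3d, the sum ranged from 5.13 to 17.7 RPM in the IL-4 experiment and from 22.3 to 69.3 in the Type 1 experiment.

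**Figure D3:**
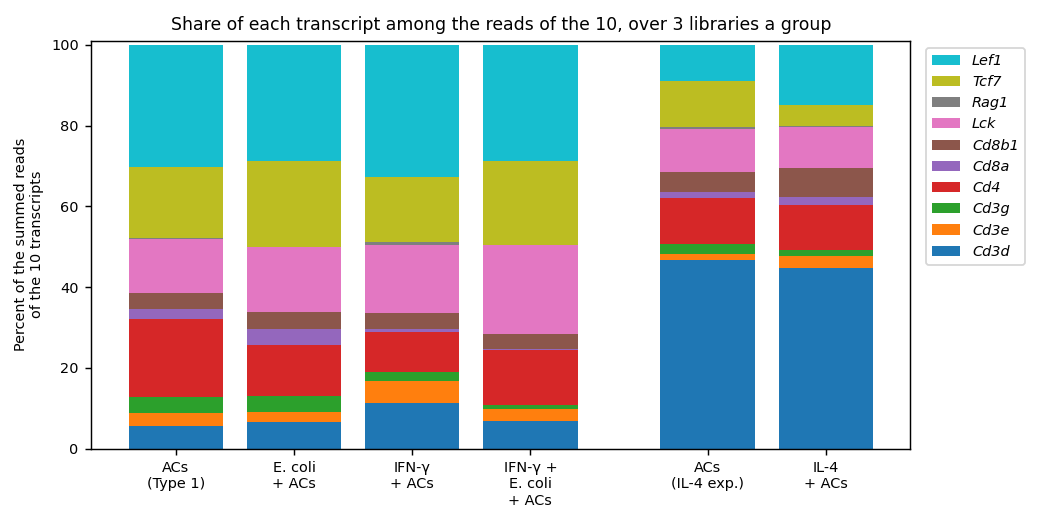
Share of each transcript in the reads of the 10 (vertical axis, percent, stacked to 100), pooled over the 3 libraries of each group. Cd3d took 46.8% and 44.8% in the 2 groups of the IL-4 experiment, against at most 11.3% in the Type 1 experiment.

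No member was called changed by E. coli. A transcript was called at a Benjamini-Hochberg adjusted p under 0.05 from limma over all genes tested, with a change of at least 1.5-fold on the scale of log2(normalized count + 1), which understates changes of low values. With E. coli + ACs against ACs, 9 members were tested, 8 of them with a positive change, and 0 were called, beside 4.12% of all 12366 genes called higher and 4.37% lower. The median change of the 9 was 0.65 (log2), beside -0.03 over all genes tested. Tcf7, at 0.82 ± 0.36 (SE), was the only member with an unadjusted p under 0.05 (adjusted p = 0.16 by limma), beside 23% of all genes. The libraries of the groups did not overlap for Tcf7 and Cd3d, 2 of 9 members, beside 17.4% of genes apart in this direction. edgeR and DESeq2 on the recovered reads also called 0 members. The comparisons with ACs in the Type 1 experiment all share its 3 ACs libraries.

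With IFN-γ + ACs against ACs, 7 of 9 members had a negative change, with a median of -0.46 beside -0.04 over all genes, and 0 were called, beside 9.58% of genes called higher and 9.01% lower. Cd4 had a change of -2.43 ± 1.04 (limma, adjusted p = 0.10), and it was the 1 member with an unadjusted p under 0.05, beside 33.9% of genes. The Cd4 mean was 13.1 ± 11.5 (SD, n = 3) against 39.5 ± 0.467, and replicate 3 of IFN-γ + ACs had no read. Without that library the change of Cd4 was -0.97 (limma, adjusted p = 0.51) and that of Cd8a -1.11 (limma, adjusted p = 0.39). Cd4 was called lower with a pseudocount of 5. edgeR and DESeq2 called 0 members and gave -1.45 and -1.56 for Cd4 and -1.80 and -1.89 for Cd8a. The groups did not overlap for Cd4 (lower) and Cd3d (higher), 1 of 9 members in each direction beside 19.5% and 19.8% of genes.

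With IFN-γ + E. coli + ACs against ACs, 8 of 9 members had a negative change, with a median of -0.70 beside -0.12 over all genes. Here 0 members were called, beside 12.4% of genes called higher and 16.2% lower, and 2 members had an unadjusted p under 0.05, beside 43.4%. DESeq2 called 0 and edgeR called Cd8a lower. Leaving out replicate 1 of the ACs group, in which Cd3g and Cd8a had 1 read each, gave calls for Cd3g, Cd8a and Lef1, and leaving out replicate 2 of the IFN-γ + E. coli + ACs group gave calls for Cd4 and Cd8a, all lower. The groups did not overlap for Cd4, 1 of 9 members beside 24.5% of genes apart and lower.

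Whether the change with IFN-γ depended on E. coli was tested by the interaction. It was negative for 8 of 9 members with a median of -1.09, beside -0.02 over all genes, and 0 members were called, beside 2.44% of genes higher and 3.36% lower. Cd3d (-1.60, adjusted p = 0.14 by limma) and Cd8a (-2.27, adjusted p = 0.24 by limma) had unadjusted p-values under 0.05, 2 of 9 beside 19.8% of genes. edgeR and DESeq2 called 0 members.

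After these values were seen, IFN-γ + E. coli + ACs was also compared with E. coli + ACs. All 9 members tested had a negative change, with a median of -1.21 beside -0.08 over all genes, and 4 were called lower, beside 8.23% of all genes, and 0 higher, beside 8.06%. Cd8a fell by 3.24 ± 0.75 on the log2 scale (limma, adjusted p = 0.0044). Cd3g fell by 2.56 ± 0.76 (limma, adjusted p = 0.022). Tcf7 changed from 60.2 ± 2.92 to 28.2 ± 4.45 normalized counts (SD, n = 3; log2 change -1.08 ± 0.36, limma adjusted p = 0.037), and Lef1 from 81.0 ± 18.4 to 38.0 ± 19.4 (-1.21 ± 0.41, limma adjusted p = 0.040). The groups did not overlap, with the lower values under IFN-γ, for 6 of 9 members, beside 18.3% of genes, and 5 members had an unadjusted p under 0.05, beside 32.9%.

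The low counts of Cd8a and Cd3g set wide limits on the size of their changes. In RPM over the pooled libraries, Cd8a was 28.8 times as high with E. coli + ACs (41 reads) as under IFN-γ + E. coli + ACs (1 read), with a 95% counting interval of 4.89 to 1170, and Cd3g 9.14 times (39 and 3 reads, interval 2.90 to 46.2). Cd8a was the only member still called when any of the 3 E. coli + ACs libraries or replicate 1 of IFN-γ + E. coli + ACs was left out, or with no filter on low values. edgeR called the same 4 members and DESeq2 called Cd3g, Tcf7 and Lef1.

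The 6 libraries with IFN-γ were likewise compared with the 6 without, a contrast added after the values were seen. All 9 again had a negative change, with a median of -0.86 beside -0.07, and 4 members were called lower, beside 11.4% of all genes, and 0 higher, beside 9.14%. These were Cd4 (15.5 against 37.6 normalized counts, log2 change -2.21 ± 0.74, limma adjusted p = 0.027), Cd8a (-2.10 ± 0.53, limma adjusted p = 0.0050), Cd3g (-1.58 ± 0.54, limma adjusted p = 0.031) and Tcf7 (25.7 against 47.6, -0.86 ± 0.25, limma adjusted p = 0.013). Only Cd4 did not overlap between all 6 and 6 libraries, 1 of 9 beside 4.17% of genes, and 5 members had an unadjusted p under 0.05, beside 41.5%. Cd8a and Tcf7 remained called with any 1 library left out, whereas Cd3g was lost without replicate 2 or 3 of ACs, any E. coli + ACs library, replicate 1 or 2 of IFN-γ + ACs or replicate 1 of IFN-γ + E. coli + ACs. Cd4 was lost without replicate 2 of ACs, replicate 2 or 3 of E. coli + ACs, replicate 3 of IFN-γ + ACs or replicate 3 of IFN-γ + E. coli + ACs. The IFN-γ libraries were the shallower ones, as given above, and the part of depth in these changes was not tested.

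**Figure D4:**
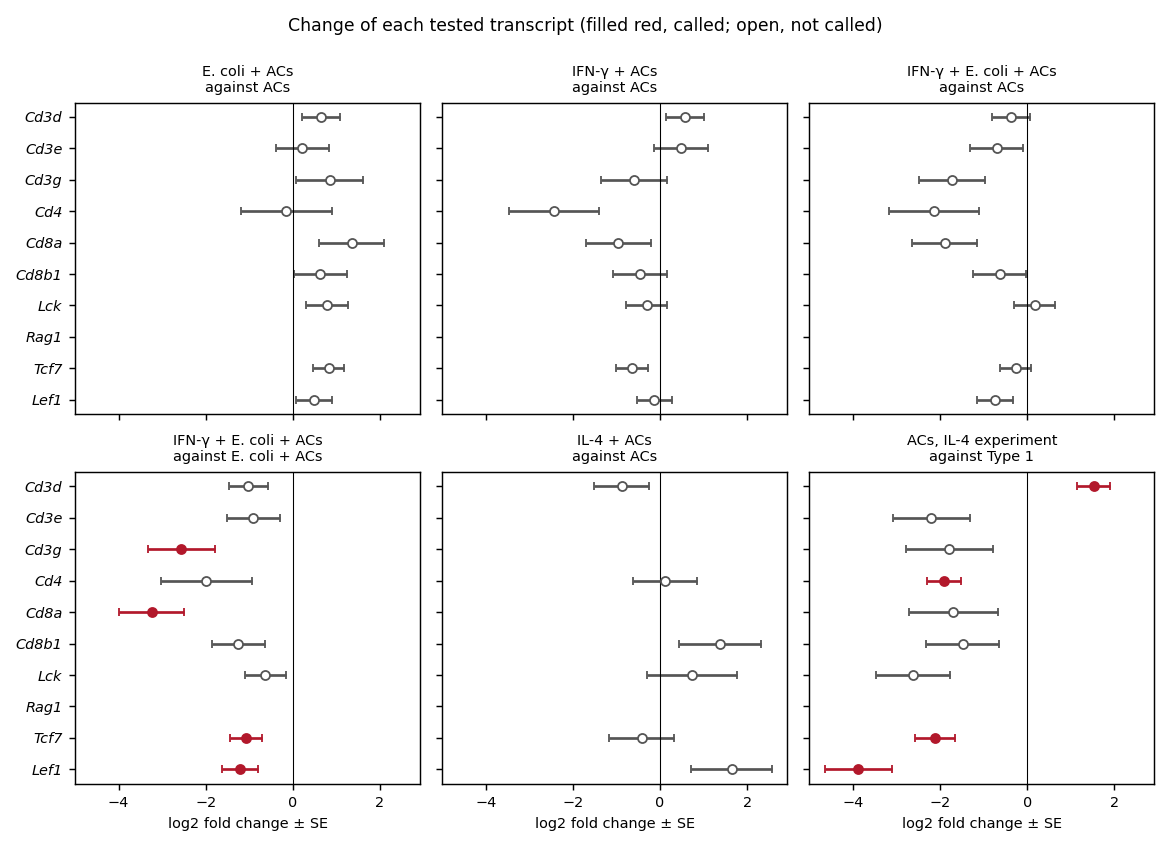
Change of each tested transcript (horizontal axis, log2 fold change ± SE from limma) in 6 comparisons, filled red where called. Rag1 was not tested, and in the IL-4 comparison neither were Cd3e, Cd3g and Cd8a. The called transcripts were Cd3g, Cd8a, Tcf7 and Lef1 in IFN-γ + E. coli + ACs against E. coli + ACs, all lower, and Cd3d (higher), Cd4, Tcf7 and Lef1 (lower) between the ACs groups of both experiments.

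IL-4 gave no call among the members. With IL-4 + ACs against ACs, 6 members passed the filter on low values, with a median change of 0.42 beside -0.01 over all genes, and 0 were called, beside 0.569% of 13362 genes called higher and 0.277% lower, and 0 had an unadjusted p under 0.05, beside 8.67%. edgeR and DESeq2 called 0. Lef1 (1.64, limma adjusted p = 0.66) and Cd8b1 (1.37, limma adjusted p = 0.72) had the largest changes. Without the shallow library of each group, an alternative added after the data were seen, these were 0.44 and 0.30, and the change of Cd3d moved from -0.88 to 0.01. Cd8b1 was the 1 of 6 members whose groups did not overlap, beside 8.08% of genes apart and higher.

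The ACs groups of the IL-4 and Type 1 experiments differed in 4 of the 9 members tested, whose median change was -1.90 beside 0.04 over all genes. Cd3d was higher in the IL-4 experiment (35.0 ± 8.51 against 11.4 ± 2.87 normalized counts, SD, n = 3; log2 change 1.53 ± 0.38, limma adjusted p = 0.019), beside 9.09% of 13048 genes called higher. Lef1 (4.60 against 61.8, -3.87 ± 0.77, limma adjusted p = 0.0067), Tcf7 (7.43 against 34.9, -2.12 ± 0.46, limma adjusted p = 0.0096) and Cd4 (10.5 against 39.5, -1.90 ± 0.39, limma adjusted p = 0.0076) were lower, 3 of 9 members tested beside 6.96% of genes. The groups did not overlap for Cd3d (higher), 1 of 9 beside 21.3%, and for Cd3e, Cd4, Lck, Tcf7 and Lef1 (lower), 5 of 9 beside 17.5%, and 6 members had an unadjusted p under 0.05, beside 32.5%. Lck was at -2.61 ± 0.85 (limma, adjusted p = 0.057) and was called lower by edgeR, by DESeq2 and without the shallow library. In RPM over the pooled libraries, Cd3e, Cd3g and Cd8a were 6.34 times (95% counting interval 1.91 to 33.0), 4.63 times (1.76 to 15.4) and 4.96 times (1.45 to 26.3) as high in the Type 1 experiment, on 3, 5 and 3 reads in the IL-4 experiment.

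Cd4 and Lef1 kept their call with any 1 library left out. The call for Cd3d was lost without replicate 1 of the Type 1 ACs group or replicate 2 of the IL-4 experiment's ACs group (1.39, limma adjusted p = 0.074), and that for Tcf7 without replicate 1 or 3 of the Type 1 ACs group. Without replicate 3 of the IL-4 experiment the change of Lef1 was -2.88 (limma, adjusted p = 0.00017) and that of Cd3d 1.47 (limma, adjusted p = 0.012). The experiment and everything handled with it cannot be told apart in this comparison.

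Il5, the product of the transgene, was examined beside Cd3d after its values were seen. Reads of the transgene and of the mouse's own Il5 gene are counted together. Il5 was at 402 ± 17.6 normalized counts (SD, n = 3) with ACs, 654 ± 71.6 with E. coli + ACs, 225 ± 16.2 under IFN-γ + ACs and 386 ± 29.5 under IFN-γ + E. coli + ACs, and at 689 ± 107 with ACs and 828 ± 135 with IL-4 + ACs in the IL-4 experiment. It was called higher with E. coli (log2 change 0.69, limma adjusted p = 0.0010), where Cd3d had a change of 0.65 (limma, adjusted p = 0.42). Il5 was also called higher in the ACs group of the IL-4 experiment against that of the Type 1 experiment (0.76, limma adjusted p = 0.0042). There Cd3d had a change of 1.53 (limma, adjusted p = 0.019). It was called lower under IFN-γ + ACs against ACs (-0.84, limma adjusted p = 6.2e-05), where Cd3d had a change of 0.58 (limma, adjusted p = 0.38). It was also called lower under IFN-γ + E. coli + ACs against E. coli + ACs (-0.76, limma adjusted p = 0.00027), where Cd3d had a change of -1.02 (limma, adjusted p = 0.11), and with IFN-γ averaged over E. coli (-0.80, limma adjusted p = 1.1e-06), where Cd3d had one of -0.22 (limma, adjusted p = 0.62). The part of the transgene in the reads of Cd3d was not tested.

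Further transcripts of the T cell receptor and its signalling were present. Of a list of 20 genes, all 20 had a read in some library, and its summed level was 5240 to 6950 normalized counts, most of it from Lcp2 (mean 4840 in the Type 1 experiment), an adaptor that myeloid cells also use. The next by mean were Rhoh (340), Trbc2 (139) and Ptprcap (94.0). Trbc2, the constant segment of the receptor β chain, was at 120 with ACs, 240 with E. coli + ACs, 115 under IFN-γ + ACs, 79.5 under IFN-γ + E. coli + ACs, 39.3 with ACs of the IL-4 experiment and 78.2 with IL-4 + ACs. Trac, the constant segment of the α chain and named after its values were seen, was at 28.1, 47.4, 15.3, 19.0, 4.62 and 9.63 in the same order.

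With E. coli + ACs against ACs, Trbc2 (0.99, limma adjusted p = 0.018) and Cd247 (1.31, limma adjusted p = 0.033), the CD3ζ chain, rose, 2 of 17 genes of this list tested, beside 4.12% of all genes, and 0 fell, beside 4.37%. The median change of the list was 0.73, beside -0.03 over all genes. IFN-γ + E. coli + ACs against E. coli + ACs had 7 of 17 lower, beside 8.23% of all genes, and 2 higher, beside 8.06% (median -1.29, beside -0.08), among them Trbc2 (-1.67, limma adjusted p = 0.00013), Trac (-1.29, limma adjusted p = 0.0090) and Ptprcap (-2.09, limma adjusted p = 2.8e-05) lower and Rhoh (0.61, limma adjusted p = 0.0030) and Fyn (1.06, limma adjusted p = 0.0080) higher. With IFN-γ averaged over E. coli, 4 of 17 were lower (Trac, Trbc2, Ptprcap and Thy1), beside 11.4% of all genes, and 1 higher (Fyn), beside 9.14% (median -0.18, beside -0.07). The interaction was called for 3 of 17, all negative, beside 3.36% of all genes. These were Trbc2 (-1.58, limma adjusted p = 0.015), Cd247 (-2.42, limma adjusted p = 0.011) and Cd6 (-3.88, limma adjusted p = 0.016), the last 2 named after their values were seen. The ACs group of the IL-4 experiment had 4 of 16 lower (Trac, Trbc2, Lat and Rhoh), beside 6.96% of all genes, and 0 higher, beside 9.09%, than that of the Type 1 experiment, with a median of -1.25 beside 0.04. IL-4 gave 0 of 14, beside 0.569% of all genes higher and 0.277% lower.

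Some transcripts of immature thymocytes were at or near 0, and others were not. Of 16 genes listed for double-positive thymocytes, Rag2, the other subunit of the recombinase, had 9 reads over the 18 libraries. Dntt, the terminal transferase, had 9 and Arpp21 9. Ptcra, the surrogate α chain, belongs to the receptor list above and had 23. Other double-positive genes had more reads, among them Satb1 (1315), Cd1d1 (549), Ccr9 (252), Tox (135) and Ly6d (132), named after their values were seen. The list of 16 double-positive genes nonetheless summed to 6360 to 20400 normalized counts, mostly from Cd24a (8100 on average in the Type 1 experiment), Dgka (467), Tcf12 (197) and Tespa1 (185), none of which is restricted to thymocytes. Of the 11 of these genes tested, IFN-γ averaged over E. coli had 2 lower (Satb1 and Ly6d), beside 11.4% of all genes (median -0.30, beside -0.07), and the ACs group of the IL-4 experiment had Cd24a higher, beside 9.09% of all genes, and Satb1 lower, beside 6.96% (median -0.47, beside 0.04). The reads of the 10 members are called T-lineage transcripts here, and which cells they came from was not tested.

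**Figure D5:**
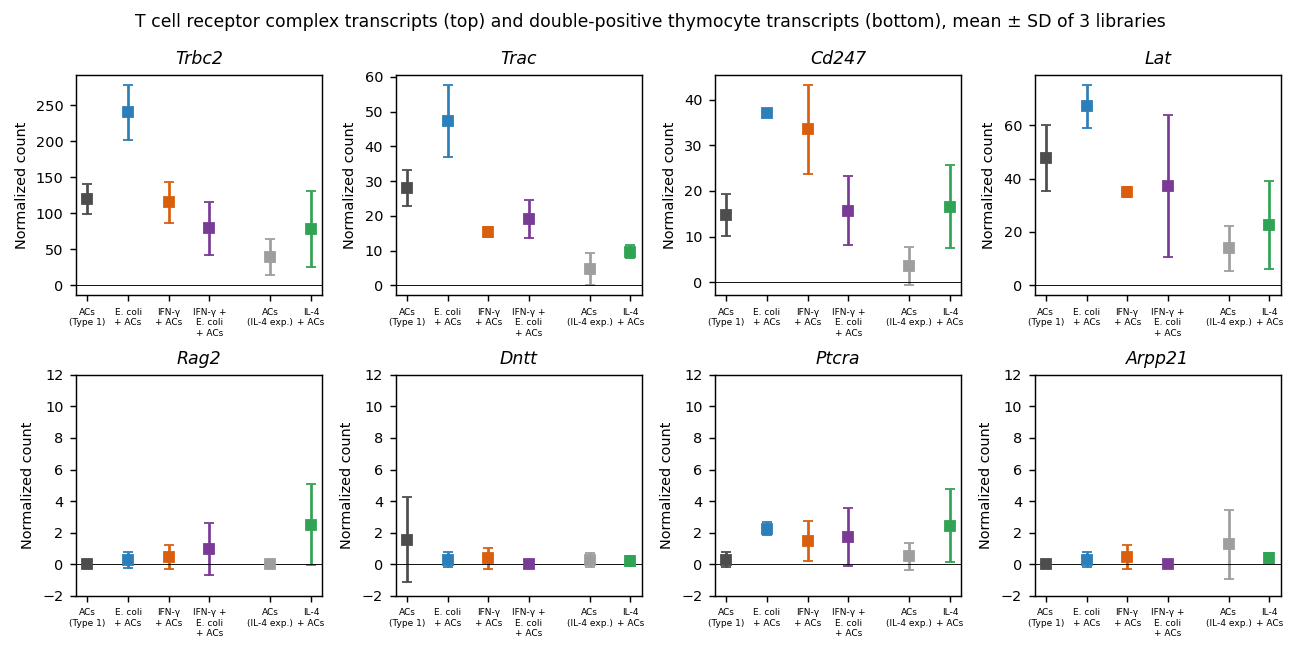
Normalized counts (mean ± SD of 3 libraries, linear axes) of 4 transcripts of the receptor complex (Trbc2, Trac, Cd247 and Lat, top) and of 4 transcripts of immature thymocytes (Rag2, Dntt, Ptcra and Arpp21, bottom, one range for all). Ptcra is from the receptor list and the other bottom genes are from the double-positive list, all of them chosen as low. Trbc2 was at 240 with E. coli + ACs and 39.3 with ACs of the IL-4 experiment, whereas the highest group mean in the bottom row was 2.49 (Rag2, IL-4 + ACs).

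Transcription factors of the T lineage and markers of other cells were read in the same libraries. The 12 T-lineage transcription factors summed to 2040 to 3620 normalized counts, led by Notch1 (1360), Zbtb7b (388), Runx1 (283) and Ikzf3 (278). The lowest means in the Type 1 experiment, named after their values were seen, were of Id3 (13.3), Bcl11b (12.7), Myb (10.6) and Gata3 (3.52). In IFN-γ + E. coli + ACs against E. coli + ACs 2 of 12 were called lower, beside 8.23% of all genes, and 1 higher, beside 8.06%. Bcl11b, the factor that commits cells to the T lineage, fell (-2.25, limma adjusted p = 0.035; 6.48 against 24.1 normalized counts), as did Runx1 (-0.80, limma adjusted p = 0.0029; 234 against 411), while Runx3 rose (0.63, limma adjusted p = 0.015; 298 against 192). Of 10 genes of mature T cells, Tbx21 was at 0 in all 18 libraries, and those with the most reads included Klf2, S1pr1 and Il7r. Of 10 NK cell genes, Ncr1 and Prf1 were at 0 throughout, and the sum was 1.88 to 33.2. Of 8 genes of thymic stroma, Foxn1 and Krt5 were at 0 throughout, and the sum was 1.15 to 46.3.

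The 10 B cell genes summed to 999 to 1130 with ACs, 401 to 436 with E. coli + ACs, 215 to 267 under IFN-γ + ACs, 207 to 227 under IFN-γ + E. coli + ACs and 497 to 756 in the IL-4 experiment. Ighm, the μ heavy chain of immunoglobulin, fell with E. coli (-1.88, limma adjusted p = 3.3e-07) and with IFN-γ (-3.08, limma adjusted p = 7.4e-11). The 12 genes of peritoneal macrophages summed to 18800 to 24200 with ACs, 10300 to 12700 with E. coli + ACs, 31200 to 41000 under IFN-γ + ACs and 12700 to 13900 under IFN-γ + E. coli + ACs, and to 22600 to 42300 in the IL-4 experiment. C1qc (6360), Lyz2 (5460), C1qb (2420) and Adgre1 (2310) had the highest Type 1 means, and they did not move together. Under IFN-γ + E. coli + ACs against ACs, C1qc (-1.83, limma adjusted p = 9.4e-09) and C1qb (-1.19, limma adjusted p = 7e-05) were called lower. Lyz2 (-0.38, limma adjusted p = 0.055) was not called, and Adgre1 was called higher (0.72, limma adjusted p = 1.3e-05). The eosinophil list of 10 genes, with Alox15, Ccr3, Siglecf and Gata1 in front, summed to 10600 to 12100 under IFN-γ + ACs and to 15600 to 20300 elsewhere. Siglecf, whose protein the beads select, was lower with IFN-γ averaged over E. coli (-0.73, limma adjusted p = 2.2e-07). Dendritic cell genes (8 genes) summed to 269 to 580, neutrophil genes (10) to 231 to 1040 and mast cell genes (8) to 191 to 756. With IFN-γ averaged over E. coli, the calls were 3 of 7 lower for B cells (median -1.19), 3 of 12 higher for macrophages (0.18), 3 of 9 lower for eosinophils (-0.45), 3 of 8 lower for mature T cells (-0.68), 1 of 12 lower for the transcription factors (-0.05), 1 of 1 higher for NK cells (2.16), 1 of 6 higher for neutrophils (0.13), 1 of 4 higher for mast cells (0.80), 0 of 5 for dendritic cells (-0.11) and 0 of 1 for thymic stroma (-0.50), beside a median of -0.07 over all genes, of which 11.4% were called lower and 9.14% higher. The part of these other cells in the changes of the members was not tested.

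The genes whose levels were most like the sum of the 10 members were, over the 12 libraries of the Type 1 experiment, Cyren, Xbp1, Adsl, Hmgb1 and Pfdn6, with Pearson's r from 0.90 to 0.95 among 10161 genes. Trbc2 ranked 9 (0.88) and Trac 38 (0.84). Over all 18 libraries they were Reep5, Eif4ebp2, Pfn1, Capns1 and Mvb12b, with r from 0.89 to 0.90 among 10409 genes, and Trbc2 ranked 16 (0.86) and Trac 27 (0.85). These libraries fall into groups that differ in stimulus, depth and experiment, so the values describe likeness across groups.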

How the data were processed

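Expression was measured by CEL-Seq2 in 18 libraries, 3 in each of 6 groups of eosinophils with ACs. The values the authors deposited are a signal, each a count divided by the library's DESeq2 size factor. The submitters' processing notes name FastQC 0.11.5, Trim Galore, cutadapt 1.10, TopHat2 2.1.0, Bowtie2 2.2.6, HTSeq 0.6.1, DESeq2 1.26.0 and GRCm38, while the methods also describe a second pipeline, and the one behind this table and its strand setting are not given in the sources used here. Values were whole multiples of 1 step per library, so reads were recovered for 100% of values (tolerance 0.05). Identifiers were matched to symbols for 54409 of 54446 genes.

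limma 3.58.1 (R 4.3.3; lmFit, eBayes with trend) was fitted to log2(normalized count + 1) over genes whose mean in the fit's libraries reached 3, with 12 libraries for the Type 1 experiment, 6 for IL-4 and 6 for ACs against ACs, and Benjamini-Hochberg adjustment over all genes. Calls needed an adjusted p under 0.05 and 1.5-fold. IFN-γ + E. coli + ACs against E. coli + ACs and IFN-γ averaged over E. coli were added after the values were seen. As alternatives, the recovered reads were tested by DESeq2 1.42.0 and by edgeR 4.0.16. On simulated 4-fold changes limma recovered 52.6% of genes with a mean under 50 in the E. coli design, 33.7% in the IL-4 design and 32.3% in ACs against ACs. Between groups of 3, an exact permutation test cannot give a two-sided p below 0.10.

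The members and lists were chosen with earlier results of these data known. Each member is given in every library. From some lists the 4 genes of highest mean are named. Also named are up to 4 called genes in comparisons in which a member was called, and some markers at or near 0. A few others are marked as named after their values were seen. Some genes of the lists are not reported here. Likeness was Pearson's r with the members' sum. Python 3.11.15 was used with pandas 2.3.3, scipy 1.17.1, numpy 2.4.6 and matplotlib 3.10.9.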

Additional observations from a re-analysis of the deposited data

How the results depend on the processing

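Members called were recounted with a pseudocount of 5, no filter, a mean of at least 10, a common upper quartile, edgeR, DESeq2, all 18 libraries in 1 fit, no fold threshold and each library left out. The count stayed at 0 in every one of these for E. coli, the interaction and IL-4. For IFN-γ + ACs against ACs it was 1 (Cd4) with a pseudocount of 5 and 0 to 1 with a library left out. For IFN-γ + E. coli + ACs against ACs it was 1 (Cd8a) in edgeR and 0 to 3 with a library left out. Against E. coli + ACs it moved from 4 to 1 with no filter, 2 with a mean of at least 10 and 2 with all 18 libraries in 1 fit, and to 1 to 4 with a library left out. For IFN-γ averaged over E. coli it was 2 with a mean of at least 10 and 2 to 5 with a library left out, and for ACs against ACs it was 2 to 5 with a library left out. A mean of at least 10 leaves Cd3g and Cd8a untested, and the cause of the other moves was not tested.

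Changes of uncalled members turned sign as follows (log2). For IL-4, Lck was -0.06 in edgeR, and without both shallow libraries Cd3d was 0.01, Cd4 -0.29 and Lck -0.20. With 1 library left out the range was -0.20 to 0.59 for Cd3e and -0.10 to 1.33 for Cd3g with E. coli, -0.95 to 0.01 for Cd8b1, -0.87 to 0.09 for Lck and -0.57 to 0.15 for Lef1 with IFN-γ, -0.61 to 0.05 for Cd3d and -0.09 to 0.57 for Lck with IFN-γ + E. coli, -1.02 to 2.04 for Cd4 and -0.72 to 0.24 for Lck in the interaction, and -0.61 to 0.71 for Cd4 and -0.29 to 1.58 for Lck with IL-4. Of all values of single members under the alternatives, 1028 kept their direction and side of the threshold, 40 called ones lost their call and 21 gained one.

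The replicate numbers come from the labels, which do not say whether they pair the libraries. Deviations from the group means of same-numbered libraries correlated at 0.01 on average (-0.09 to 0.09 in the Type 1 experiment). A correlation over all genes cannot decide whether the libraries were paired, so fits with and without a replicate block are given. With the replicate block, 1 member (Cd4) was called in IFN-γ + ACs against ACs and 1 (Cd4) in IFN-γ + E. coli + ACs against ACs, 5 in IFN-γ averaged over E. coli, and the counts of the other comparisons were those given in the report. Depth limits low members most, since a change of a member within the limit of 3 reads was not detectable.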
